A study of Mus musculus with 10 samples.

Results

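The genes described here are 9 CC chemokine genes of the stromal layer: Ccl2, Ccl3, Ccl4, Ccl5, Ccl7, Ccl8, Ccl11, Ccl17 and Ccl20. They were taken as a named list, of 19938 genes with a probeset of their own, and each has 1 probeset that carries its symbol and no other. Mouse embryonic fibroblasts (MEFs) are connective tissue cells that serve here as a feeder layer for leukemia cells. All of them were wild type, had received 1000 rad so that they no longer divided, and had been kept for 9 days in a medium with murine IL-3. No source used here gives the strain of the MEFs. MEFs + DMSO (3 arrays) had the solvent alone, and MEFs + nilotinib (3 arrays) had the Abl kinase inhibitor nilotinib at 16 nM. MEFs + ALL + nilotinib (3 arrays) shared the medium with nilotinib-treated 8093 cells, precursor B lymphoblasts from a Bcr/Abl transgenic mouse, across a Transwell membrane with pores of 0.4 µm. MEFs + ALL + DMSO was a lone array with solvent-treated 8093 cells across the membrane. The other dishes of that group were found by the study to hold ALL cells and were not used. No Transwell is recorded for the dishes without ALL cells. In comparisons of dishes with and without ALL cells, the cells and the membrane insert therefore cannot be told apart. Each array is from a dish plated from MEFs, so p-values measure the spread between dishes.

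CC chemokines are small secreted proteins, named for adjacent cysteines, that draw leukocytes along a gradient through receptors coupled to G proteins. Fibroblasts release several of them when inflammatory cytokines reach the cells, and proteoglycans at the cell surface hold them in place. Ccl2, Ccl7 and, in mice, Ccl12 call monocytes through CCR2. Ccl3, Ccl4 and Ccl5 draw T cells and monocytes to inflamed tissue, and Ccl11 draws eosinophils through CCR3. Ccl17 acts on CCR4 of T cells, and Ccl20 acts on CCR6, which B cells also carry.

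Upstream sequence of RefSeq (GRCm38.p6) was at hand for 4 of the 9 genes, Ccl3, Ccl8, Ccl17 and Ccl20. The 250 bases before the start sites of Ccl17 and Ccl20 are shown because Ccl17 was the member that passed the test below, and Ccl20 had the smallest adjusted p among the members in MEFs + ALL + nilotinib over MEFs + DMSO. They lie on the plus strand at chr8:94810203-94810452 for Ccl17 and chr1:83116516-83116765 for Ccl20, and the capitals mark a match to a motif.
Ccl17: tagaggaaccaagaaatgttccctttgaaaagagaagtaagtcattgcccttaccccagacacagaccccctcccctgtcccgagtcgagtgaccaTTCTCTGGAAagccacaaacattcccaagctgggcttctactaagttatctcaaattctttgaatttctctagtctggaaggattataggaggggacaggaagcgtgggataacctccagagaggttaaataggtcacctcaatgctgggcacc
Ccl20: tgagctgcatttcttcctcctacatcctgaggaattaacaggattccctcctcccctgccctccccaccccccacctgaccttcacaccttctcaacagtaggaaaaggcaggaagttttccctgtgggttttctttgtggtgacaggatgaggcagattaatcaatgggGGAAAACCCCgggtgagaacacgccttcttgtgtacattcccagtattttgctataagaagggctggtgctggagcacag
The capitals in Ccl17, at -154 to -145 from the start site, match the STAT6 motif, TTC and GAA with any 4 bases between. STAT6 carries the signal of the interleukin-4 receptor. The capitals in Ccl20, at -80 to -71, match the NF-kB consensus, the site of the factors that act downstream of interleukin-1 and TNF receptors. Of the 32851 upstream windows of the same length in the table, 5.85% hold the STAT6 motif and 3.9% the NF-kB consensus on either strand. The window of Ccl8 holds the TATA box TATAAA at -32 to -27, a match that 12.4% of windows have. AP-1 (TGANTCA, in 6.75% of windows) and the core of the interferon-stimulated element (GAAA and GAAA with any 2 bases between, in 2.98%) had no match in the 4 windows, and the window of Ccl3 held none of the 5 motifs. A match describes letters and does not show that a factor binds there.

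Values are log2 probeset signals. The word called is kept for a limma p under 0.05 after adjustment over all 35557 probesets. In MEFs + ALL + nilotinib over MEFs + DMSO 0 of the 9 genes were called, beside 0.627% of all probesets. At an unadjusted p under 0.05, 4 of the 9 lay higher (Ccl2, Ccl5, Ccl7 and Ccl20), beside 9.5% of probesets on that side, and 0 lay lower (6.72% of probesets). The median log2 difference of the 9 genes was 0.16, with 5 positive and 4 negative values, and that of all probesets was -0.00. The arrays of these groups did not overlap for 4 genes that lay higher and for Ccl17, which lay lower, where 14.1% and 10.6% of probesets did so. With array weights 3 of the 9 were called as higher, at 0.51 for Ccl2 (adjusted p = 0.0159), 0.40 for Ccl7 (adjusted p = 0.0268) and 0.30 for Ccl20 (adjusted p = 0.0350). That setting called 816 of the 35557 probesets as higher, where the main fit called 179. In bulk RNA, fewer cells of a type and less RNA per cell cannot be told apart.

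**Figure D1:**
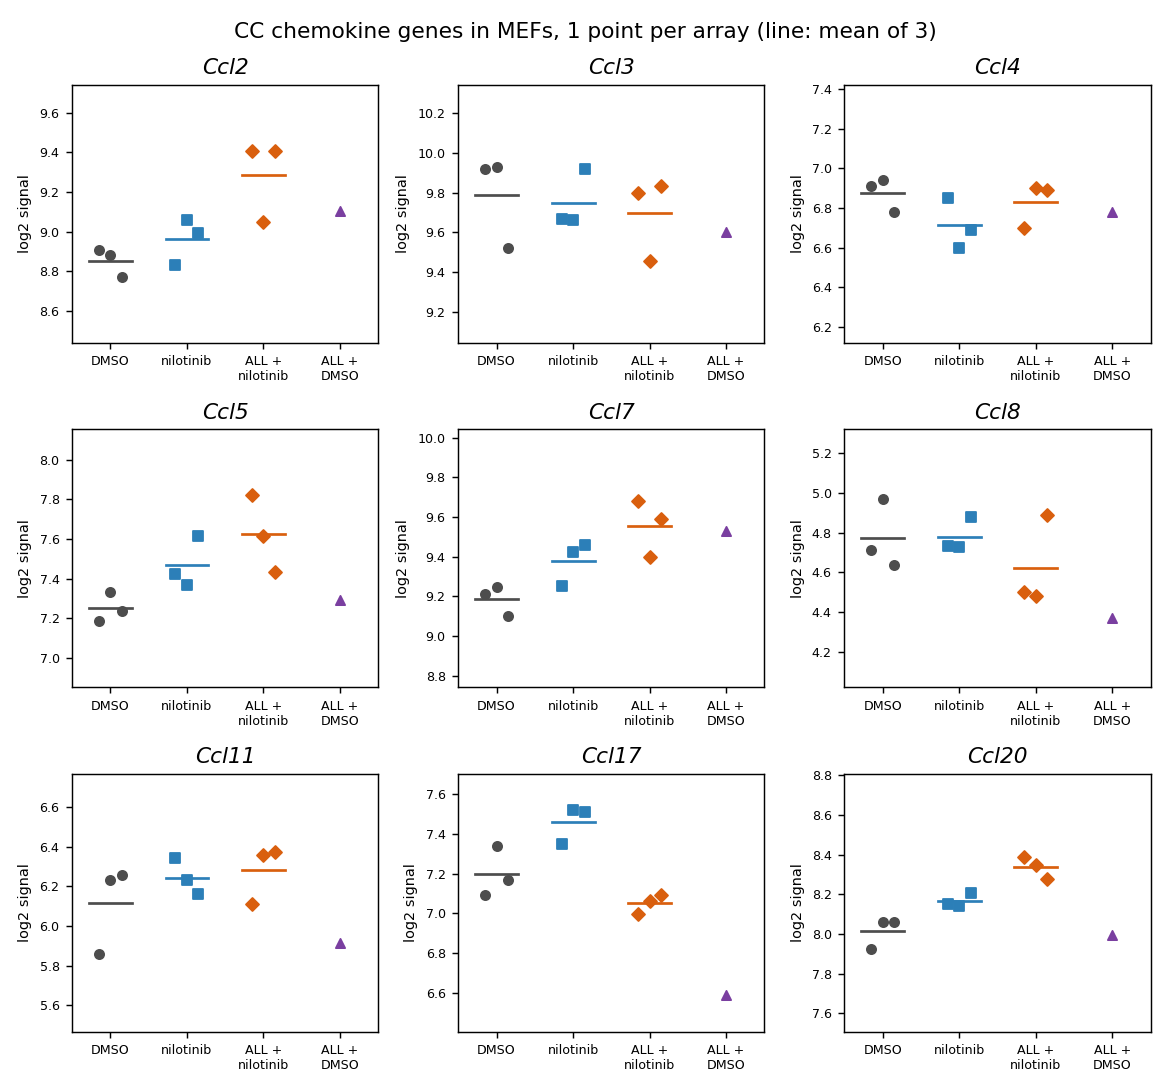
Log2 signal of the 9 CC chemokine genes (y axis, a separate range for each gene) on the 10 arrays by group (x axis), with 1 point per array and a line at the mean of 3 arrays. Ccl20 steps up from MEFs + DMSO to MEFs + nilotinib to MEFs + ALL + nilotinib with no overlap, and the MEFs + ALL + DMSO array has the lowest Ccl17 value, 6.59.

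Arrays correlated with each other at 0.9753 to 0.9947 over all probesets, and their medians ran from 6.94 to 7.01. The MEFs + ALL + DMSO array stood apart on the leading principal component with a score of 66.9 (30.8% of the variance), and replicate 2 of MEFs + ALL + nilotinib on the next with a score of 50.0 (18.9%). Fibroblast markers were present in every group: the summed signal of 11 of 11 markers, without the log, was 65748 to 67230 in MEFs + DMSO, 59592 to 65827 in MEFs + nilotinib, 61915 to 62992 in MEFs + ALL + nilotinib and 55409 in MEFs + ALL + DMSO. In MEFs + ALL + nilotinib over MEFs + DMSO 1 of the 11 was called, Thy1, a surface glycoprotein, as higher by 0.605 (limma adjusted p = 0.0416), beside 0.627% of all probesets. On the lone array 2 were called as higher and 1 as lower, beside 6.67% and 3.59% of all probesets. The sum of 11 measured markers of pro-B and B cells lay between 1129 and 1242 on the 9 arrays of the triplicate groups and at 5922 on the MEFs + ALL + DMSO array, where 9 of the 11 were called higher than in MEFs + DMSO. For 9 of 9 markers of all leukocytes the sum was 3785 to 4200 in MEFs + DMSO, 3773 to 4505 in MEFs + nilotinib, 4481 to 5167 in MEFs + ALL + nilotinib and 12686 in MEFs + ALL + DMSO. In MEFs + ALL + nilotinib over MEFs + DMSO 1 of the 9 was called, as higher, beside 0.627% of all probesets. Of the 9 differences there, 6 were positive and 3 negative, with a median of 0.10, so the higher sum does not stand for all 9. Macrophages also make these chemokines, and the sum of 10 of 10 macrophage markers was 6062 to 6842 in MEFs + DMSO, 6016 to 7122 in MEFs + nilotinib, 6551 to 7243 in MEFs + ALL + nilotinib and 6294 in MEFs + ALL + DMSO, with 0 called in the comparisons with MEFs + DMSO. Lyz2, the brightest of the 10 (mean 11.9 in MEFs + DMSO), weighs most in these sums. In MEFs + ALL + nilotinib over MEFs + DMSO, Mrc1 was higher by 0.47 (limma adjusted p = 0.103). It was the 1 macrophage marker higher at an unadjusted p under 0.05, and 0 were lower (9.5% and 6.72% of probesets). Csf1r differed by -0.14 (limma adjusted p = 0.345), and its groups did not overlap. The 5 endothelial markers summed to 395 to 419 in MEFs + DMSO, 442 to 516 in MEFs + nilotinib, 377 to 421 in MEFs + ALL + nilotinib and 477 in MEFs + ALL + DMSO. Of these, Pecam1 was at 7.46 on the lone array and had a mean of 6.05 in MEFs + DMSO. The part of these transcripts in the values below was not tested.

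Ccl2 (probeset 10379511), the main monocyte attractant of fibroblasts, was at 8.91, 8.88 and 8.77 in MEFs + DMSO, at 8.83, 9.06 and 9.00 in MEFs + nilotinib, at 9.41, 9.05 and 9.41 in MEFs + ALL + nilotinib and at 9.10 in MEFs + ALL + DMSO. The arrays with ALL cells and nilotinib were all above those with DMSO alone, and replicate 2 of MEFs + ALL + nilotinib was within the range of MEFs + nilotinib. The log2 difference of Ccl2 was 0.43 in MEFs + ALL + nilotinib over MEFs + DMSO (SE 0.11, 95% interval 0.18 to 0.69, limma adjusted p = 0.130). Without replicate 2 of MEFs + ALL + nilotinib it was 0.55 (adjusted p = 0.0553). Against MEFs + nilotinib it was 0.33 (SE 0.11, adjusted p = 0.403), and nilotinib alone gave 0.11 over DMSO (95% interval -0.15 to 0.36, adjusted p = 0.750). The group means fell in the order MEFs + ALL + nilotinib (9.29 ± 0.21, SD, n = 3), MEFs + ALL + DMSO, MEFs + nilotinib (8.96 ± 0.12) and MEFs + DMSO (8.85 ± 0.07), and none of the pairs that limma compared passed the test.

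Ccl7 (probeset 10379518) lies next to Ccl2 on chromosome 11 and encodes another CCR2 ligand. It was at 9.21, 9.25 and 9.10 in MEFs + DMSO, at 9.25, 9.43 and 9.46 in MEFs + nilotinib, at 9.68, 9.40 and 9.59 in MEFs + ALL + nilotinib and at 9.53 in MEFs + ALL + DMSO. Its groups came in the same order as those of Ccl2, and the lone array of ALL cells with DMSO lay between the arrays of ALL cells with nilotinib. The difference of MEFs + ALL + nilotinib over MEFs + DMSO was 0.37 (SE 0.09, 95% interval 0.16 to 0.58, limma adjusted p = 0.124), and 0.45 without replicate 2 of the former (adjusted p = 0.0847). Over MEFs + nilotinib it was 0.18 (SE 0.09, adjusted p = 0.594), and nilotinib alone gave 0.19 over DMSO (adjusted p = 0.479). The lone array was 0.34 above MEFs + DMSO (SE 0.13, adjusted p = 0.135). Limma called none of these, nor the step of 0.03 between the arrays with ALL cells (95% interval -0.27 to 0.33).

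Ccl2 and Ccl7 ranked the arrays in much the same way. Their Pearson r was 0.934 over the 10 arrays, 0.946 over the 9 arrays of the triplicate groups and 0.923 over the deviations of these 9 arrays from their group means. Ccl12, which lies with them in the same cluster on chromosome 11 and encodes a further CCR2 ligand, had an r of 0.823 with Ccl2 and 0.903 with Ccl7 over the 10 arrays, and 0.698 and 0.784 over the deviations. The arrays share scan, normalization and group, and these values are a description. Ccl12 was at 7.10, 6.91 and 6.65 in MEFs + DMSO, at 7.04, 7.08 and 7.16 in MEFs + nilotinib, at 7.70, 7.21 and 7.38 in MEFs + ALL + nilotinib and at 7.64 in MEFs + ALL + DMSO. The 4 arrays with ALL cells were the highest of the 10 for Ccl12. Its differences over MEFs + DMSO were 0.54 in MEFs + ALL + nilotinib (SE 0.14, limma adjusted p = 0.141) and 0.75 on the lone array (SE 0.20, limma adjusted p = 0.0540), and neither passed the test.

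**Figure D2:**
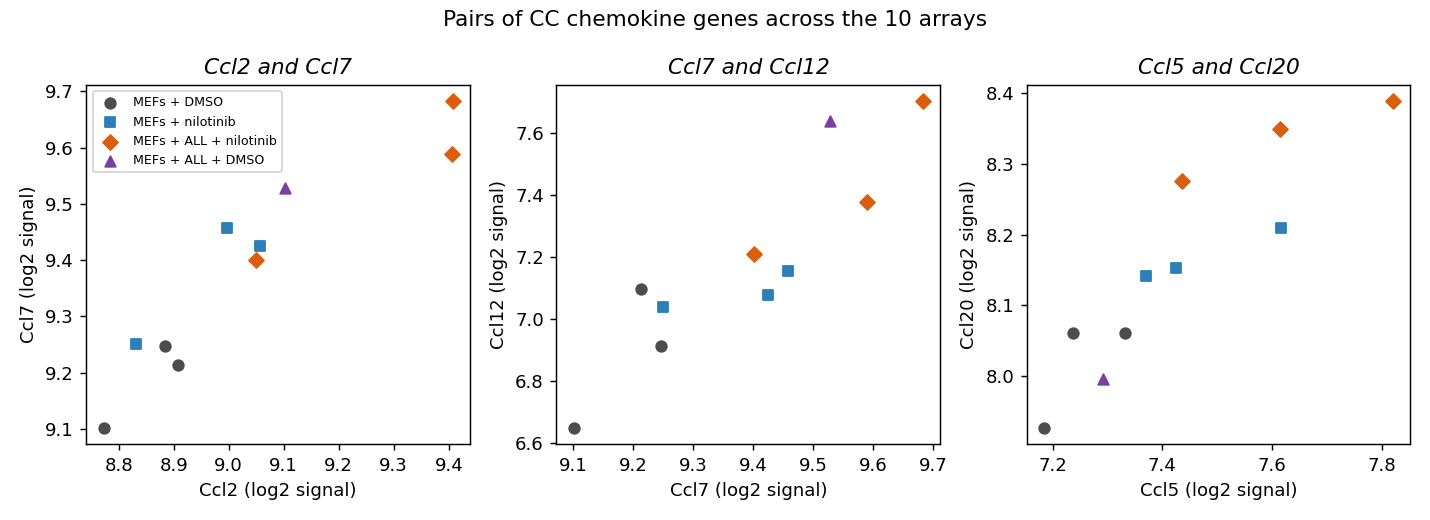
Log2 signals of Ccl2 against Ccl7, Ccl7 against Ccl12 and Ccl5 against Ccl20 (both axes), with 1 point per array and groups by colour and shape. Points of all groups follow a line in the panel of Ccl2 and Ccl7 (r of 0.934 over 10 arrays), and the MEFs + ALL + DMSO array lies among the MEFs + DMSO arrays in the panel of Ccl5 and Ccl20.

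Ccl8 (probeset 10379535) and Ccl11 (probeset 10379524) belong to the same cluster on chromosome 11, in the order Ccl2, Ccl7, Ccl11, Ccl12, Ccl8. Ccl8, a monocyte and lymphocyte attractant, was at 4.71, 4.97 and 4.64 in MEFs + DMSO, at 4.73, 4.73 and 4.88 in MEFs + nilotinib, at 4.50, 4.48 and 4.89 in MEFs + ALL + nilotinib and at 4.37 in MEFs + ALL + DMSO. These values are below 5.24, the 20th percentile of the probesets' mean signal, so the probeset is dim in every group. The differences of Ccl8 over MEFs + DMSO were -0.15 in MEFs + ALL + nilotinib (95% interval -0.45 to 0.15, limma adjusted p = 0.618), 0.01 in MEFs + nilotinib (95% interval -0.29 to 0.31) and -0.40 on the lone array (95% interval -0.82 to 0.02, limma adjusted p = 0.198). Ccl11, which encodes eotaxin, was at 5.86, 6.23 and 6.26 in MEFs + DMSO, at 6.34, 6.23 and 6.16 in MEFs + nilotinib, at 6.11, 6.36 and 6.38 in MEFs + ALL + nilotinib and at 5.91 in MEFs + ALL + DMSO. Its triplicate groups overlapped, and only replicate 1 of MEFs + DMSO lay below the lone array. The differences of Ccl11 were 0.16 (95% interval -0.12 to 0.45), 0.13 (95% interval -0.15 to 0.41) and -0.20 (95% interval -0.60 to 0.20) in the same 3 comparisons, none of them called. For Ccl8 and Ccl11 the triplicate groups lay within each other's spread, and no order of groups can be read from them.

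Ccl3 (probeset 10389231) and Ccl4 (probeset 10379721) are inflammatory chemokines better known from macrophages and lymphocytes. Their RefSeq spans overlap on chromosome 11, and whether a probe lies in the part they share was not tested. Ccl3 was at 9.92, 9.93 and 9.52 in MEFs + DMSO, at 9.67, 9.66 and 9.92 in MEFs + nilotinib, at 9.80, 9.45 and 9.84 in MEFs + ALL + nilotinib and at 9.60 in MEFs + ALL + DMSO. Ccl4 was at 6.91, 6.94 and 6.78 in MEFs + DMSO, at 6.85, 6.60 and 6.69 in MEFs + nilotinib, at 6.70, 6.90 and 6.89 in MEFs + ALL + nilotinib and at 6.78 in MEFs + ALL + DMSO. The triplicate groups overlapped for both genes, and the lone array lay below MEFs + nilotinib for Ccl3. The difference of MEFs + ALL + nilotinib over MEFs + DMSO was -0.09 for Ccl3 (95% interval -0.43 to 0.24) and -0.05 for Ccl4 (95% interval -0.26 to 0.16), with limma adjusted p of 0.796 and 0.836. Both signs turned when 1 array was left out, to 0.03 for Ccl3 without replicate 2 and to 0.02 for Ccl4 without replicate 1 of MEFs + ALL + nilotinib. Nilotinib alone gave -0.04 for Ccl3 (95% interval -0.38 to 0.30) and -0.16 for Ccl4 (95% interval -0.37 to 0.04). Within groups Ccl3 deviated with Ccl2 (r of 0.740 over 9 deviations) and Ccl7 (0.801), while over the 10 arrays the same pairs had r of 0.164 and 0.130.

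Ccl5 (probeset 10389207), an attractant of T cells and monocytes, was at 7.18, 7.33 and 7.24 in MEFs + DMSO, at 7.42, 7.37 and 7.62 in MEFs + nilotinib, at 7.82, 7.62 and 7.44 in MEFs + ALL + nilotinib and at 7.29 in MEFs + ALL + DMSO. Both groups with nilotinib lay above all MEFs + DMSO arrays, they overlapped with each other, and the lone array lay within the range of MEFs + DMSO. The difference of MEFs + ALL + nilotinib over MEFs + DMSO was 0.37 (SE 0.11, 95% interval 0.12 to 0.62, limma adjusted p = 0.164). Nilotinib alone gave 0.22 over DMSO (SE 0.11, 95% interval -0.03 to 0.47, adjusted p = 0.486), and the addition of ALL cells to nilotinib 0.15 (95% interval -0.10 to 0.40, adjusted p = 0.690). The mean of MEFs + ALL + nilotinib, 7.62 ± 0.19 (SD, n = 3), was 0.33 above the lone array (SE 0.15, adjusted p = 0.311).

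Ccl20 (probeset 10347888) lies alone on chromosome 1 and encodes the ligand of CCR6. It was at 7.93, 8.06 and 8.06 in MEFs + DMSO, at 8.15, 8.14 and 8.21 in MEFs + nilotinib, at 8.39, 8.35 and 8.28 in MEFs + ALL + nilotinib and at 7.996 in MEFs + ALL + DMSO. The triplicate groups formed 3 steps with no overlap, and the lone array lay within the lowest. Of all probesets, 13.6% lay higher and apart in MEFs + nilotinib over MEFs + DMSO. For MEFs + ALL + nilotinib it was 7.8% over MEFs + nilotinib and 14.1% over MEFs + DMSO. The share that forms all 3 steps was not counted. Its differences were 0.32 in MEFs + ALL + nilotinib over MEFs + DMSO (SE 0.06, 95% interval 0.17 to 0.47, limma adjusted p = 0.0774), 0.15 in MEFs + nilotinib over MEFs + DMSO (SE 0.06, limma adjusted p = 0.436) and 0.17 in MEFs + ALL + nilotinib over MEFs + nilotinib (SE 0.06, limma adjusted p = 0.465). No step passed the test. Over the lone array MEFs + ALL + nilotinib was 0.34 higher in the mean (SE 0.09, adjusted p = 0.0892), and the lone array was 0.02 below MEFs + DMSO (95% interval -0.23 to 0.19). Ccl5 and Ccl20, on chromosomes 11 and 1, had an r of 0.909 over the 10 arrays, 0.908 over 9 and 0.793 over the deviations from group means.

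Ccl17 (probeset 10574226), which lies beside Ccl22 on chromosome 8, was the member that passed the test, in the lone array alone. It was at 7.093, 7.338 and 7.168 in MEFs + DMSO, at 7.35, 7.52 and 7.51 in MEFs + nilotinib, at 6.998, 7.064 and 7.092 in MEFs + ALL + nilotinib and at 6.59 in MEFs + ALL + DMSO. The 4 arrays with ALL cells were the lowest of the 10, replicate 3 of MEFs + ALL + nilotinib just below replicate 1 of MEFs + DMSO, and the 3 arrays with nilotinib alone the highest. On the lone array Ccl17 was lower than in MEFs + DMSO by a log2 difference of -0.61 (SE 0.12, 95% interval -0.88 to -0.35, limma adjusted p = 0.0135), the only call among the 9 genes in that comparison, where 10.3% of probesets were called and 3.59% as lower. The call held without each of the MEFs + DMSO arrays (adjusted p of 0.0183 to 0.0345) and was lost when the fit held only the arrays of these groups (adjusted p = 0.0669). On this array the fibroblast sum was the lowest of all and the pro-B sum the highest, at 55409 and 5922, and their part in the difference was not tested.

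Among the triplicate groups, Ccl17 differed by -0.41 in MEFs + ALL + nilotinib over MEFs + nilotinib (SE 0.08, 95% interval -0.60 to -0.22, limma adjusted p = 0.147). Nilotinib alone gave 0.26 over DMSO (SE 0.08, 95% interval 0.07 to 0.45, adjusted p = 0.369). MEFs + ALL + nilotinib over MEFs + DMSO gave -0.15 (SE 0.08, adjusted p = 0.416), and over the lone array 0.47 (SE 0.12, adjusted p = 0.0701). None of these passed the test. The order of the group means was MEFs + nilotinib (7.46 ± 0.09, SD, n = 3), MEFs + DMSO (7.20 ± 0.13), MEFs + ALL + nilotinib (7.05 ± 0.05) and MEFs + ALL + DMSO. No neighbours in that order differed in the test. For Ccl17 MEFs + nilotinib was the highest group and MEFs + ALL + nilotinib lay below MEFs + DMSO, whereas for Ccl20 each step lay higher.

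**Figure D3:**
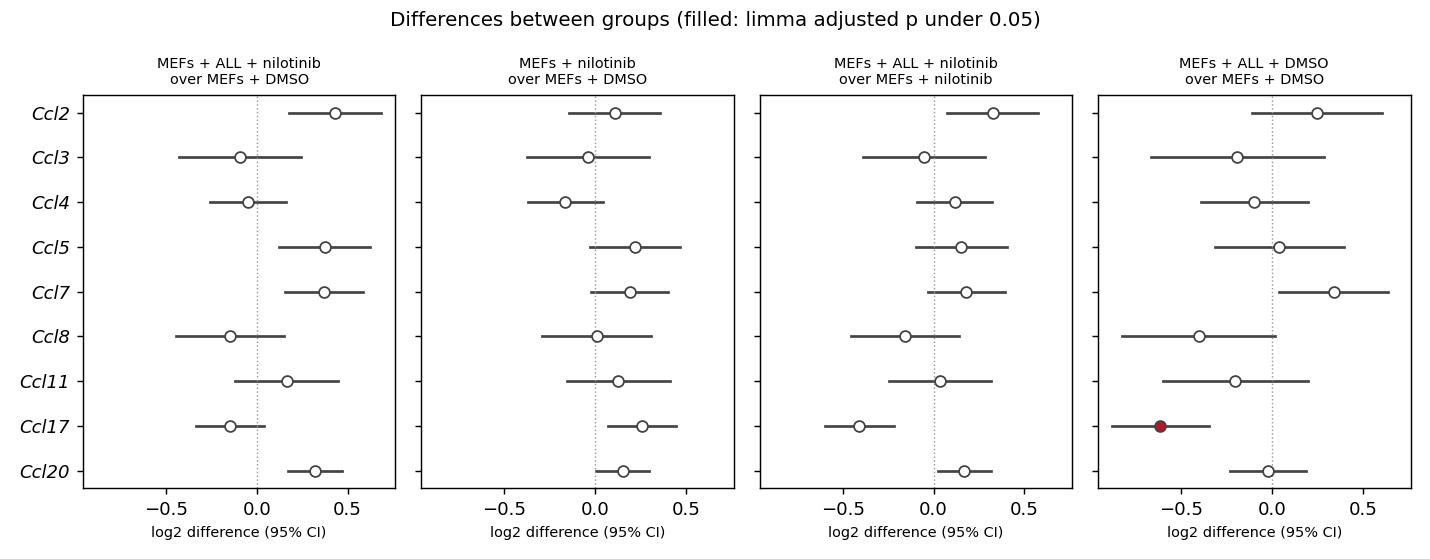
Log2 differences of the 9 genes (x axis) with 95% intervals from limma in 4 comparisons, filled where the adjusted p was under 0.05. The filled point is Ccl17 on the MEFs + ALL + DMSO array, at -0.61 below MEFs + DMSO.

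Nilotinib without ALL cells gave 0 calls among the 9 genes and 0% of all probesets. At an unadjusted p under 0.05, 2 members lay higher (Ccl17 and Ccl20), beside 6.77% of probesets. The median difference of the members was 0.13, with 7 positive and 2 negative values (Ccl3 and Ccl4). Arrays did not overlap for Ccl5, Ccl7, Ccl17 and Ccl20, which all lay higher with the drug, where 13.6% of probesets did so. When ALL cells were added to nilotinib, 0 of the 9 genes were called beside 0.186% of probesets, and the groups were apart for Ccl20, which lay higher, and Ccl17, which lay lower (7.8% and 6.62% of probesets). At an unadjusted p under 0.05, Ccl2 and Ccl20 lay higher and Ccl17 lower (4.93% and 4.34% of probesets). These comparisons share control arrays with each other.

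For nilotinib in the presence of ALL cells, MEFs + ALL + nilotinib over the lone MEFs + ALL + DMSO array, 0 of the 9 members and 4.34% of probesets were called. At an unadjusted p under 0.05 it was 2 members, Ccl17 and Ccl20, both higher (9.07% of probesets). All 9 differences were positive, from 0.03 for Ccl7 to 0.47 for Ccl17, but that of Ccl7 turned to -0.03 without replicate 1 of MEFs + ALL + nilotinib. In the same comparison 11 of 11 fibroblast markers had positive differences (median 0.16) and 11 of 11 pro-B and B cell markers negative ones (median -2.34), and their part in the members' direction was not tested. The median of the 9 members was 0.25, and that of all probesets 0.07. The groups were apart for 5 members (Ccl5, Ccl8, Ccl11, Ccl17 and Ccl20), where 39.5% of probesets lay higher and apart from a lone array. The interaction of ALL cells and nilotinib, which asks whether the effect of ALL cells differed with the drug, was called for 0 of the 9 genes and 3.95% of probesets. At an unadjusted p under 0.05 it was also 0 members, beside 19.5% of probesets, and the values ran from -0.16 for Ccl7 to 0.25 for Ccl8. The interval of this interaction was wide, from -0.36 to 0.51 for Ccl2.

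Of the other CC chemokines, 10 of 15 were measured under a symbol of their own, and Ccl21a, Ccl21b, Ccl21c, Ccl27a and Ccl27b were not analysed here. In the 6 comparisons limma called 0 of the 10, where 0% to 10.3% of all probesets were called. In MEFs + ALL + nilotinib over MEFs + DMSO their median difference was 0.00. Ccl12 alone had an unadjusted p under 0.05, on the higher side, beside 9.5% of probesets. After it the largest were 0.19 for Ccl9 (adjusted p = 0.365) and 0.19 for Ccl6 (adjusted p = 0.479), which both encode ligands of CCR1. Ccl6 and Ccl9 sit between Ccl5 and Ccl3 on chromosome 11. Their values overlapped between the groups for Ccl6 and were apart for Ccl9, as for 14.1% of probesets on the higher side. Ccl22, the neighbour of Ccl17 and the other ligand of CCR4, was not called in any of the 6 comparisons.

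Receptors and scavengers that take up CC chemokines gave 0 calls of 13 measured in MEFs + ALL + nilotinib over MEFs + DMSO, beside 0.627% of all probesets. Their median was -0.06. Ccr6 alone had an unadjusted p under 0.05, on the lower side, beside 6.72% of probesets. Ccr6, the receptor of Ccl20, was at 5.74, 5.87 and 5.94 in MEFs + DMSO and at 5.47, 5.63 and 5.30 in MEFs + ALL + nilotinib, a difference of -0.38 (SE 0.12, limma adjusted p = 0.178). Those groups did not overlap, as for 3 of the 13 genes and 10.6% of all probesets on the lower side. The probeset of Ccr6 is near the dim limit of 5.24. Ackr4, a scavenger of CC chemokines, was at 8.09, 7.96 and 8.08 in MEFs + ALL + nilotinib and at 7.60 on the lone array, and was called as higher in the former by 0.44 (SE 0.10, limma adjusted p = 0.0452). In that comparison 4.34% of all probesets were called. The call of Ackr4 was lost without replicate 1 or replicate 3 of MEFs + ALL + nilotinib, with median centring and with only the groups compared. The lone array had the lowest fibroblast sum and the highest pro-B sum, and their part in this difference was not tested.

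Among the lists of the chemokine system, receptors of the signals that induce CC chemokines held the calls of the triplicate groups, with 2 of 16 measured called as higher in MEFs + ALL + nilotinib over MEFs + DMSO and a median of 0.13, where 0.627% of all probesets were called. Il4ra, the receptor chain shared by interleukin-4 and interleukin-13 signals that act through STAT6, was at 10.3, 10.2 and 10.2 in MEFs + DMSO, at 10.2, 10.1 and 10.2 in MEFs + nilotinib, at 10.8, 10.6 and 10.7 in MEFs + ALL + nilotinib and at 10.5 in MEFs + ALL + DMSO. All 4 arrays with ALL cells were above the 6 without. It rose by 0.47 over MEFs + DMSO (SE 0.07, limma adjusted p = 0.0395) and by 0.52 over MEFs + nilotinib (SE 0.07, limma adjusted p = 0.0445). Both calls were lost whenever any 1 of the 6 arrays compared was left out, with adjusted p of 0.0508 to 0.169 and of 0.0605 to 0.184. Osmr, the receptor of the fibroblast-activating cytokine oncostatin M, was at 10.8, 10.7 and 10.7 in MEFs + DMSO, at 10.8, 11.1 and 10.9 in MEFs + nilotinib, at 11.3, 11.1 and 11.3 in MEFs + ALL + nilotinib and at 11.3 in MEFs + ALL + DMSO. It rose over MEFs + DMSO by 0.51 (SE 0.09, limma adjusted p = 0.0488), and the call was kept only without replicate 2 of MEFs + ALL + nilotinib and lost without each of the other 5 arrays (adjusted p of 0.131 to 0.199).

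Transcription factors and factors of mRNA decay that act on chemokine genes gave 0 calls of 14 measured in MEFs + ALL + nilotinib over MEFs + DMSO, and 4 lay higher and 1 lower at an unadjusted p under 0.05, beside 9.5% and 6.72% of all probesets. Their median was 0.09. The largest differences were those of Nfkbiz, an inducible cofactor of NF-kB, at 0.45 (SE 0.10, limma adjusted p = 0.104), Irf1, an interferon-responsive factor, at 0.38 (SE 0.09, limma adjusted p = 0.118), and Cebpb, a factor of the acute phase response, at 0.30 (SE 0.07, limma adjusted p = 0.117). For all 3 the arrays of these groups did not overlap, as for 14.1% of probesets on that side. Of 12 genes of proteins that hold chemokines at the surface or trim them, limma called 0 in the same comparison, and 3 lay higher and 3 lower at an unadjusted p under 0.05, against the same shares of probesets. Mmp14, a membrane-bound protease that cleaves chemokines, was the lowest at -0.47 (SE 0.11, limma adjusted p = 0.116). Its mean was 12.08 in MEFs + DMSO, 11.72 in MEFs + nilotinib and 11.60 in MEFs + ALL + nilotinib. The next in size were Mmp3 at 0.41 (limma adjusted p = 0.398) and Dpp4 at -0.32 (limma adjusted p = 0.221). Sdc1 and Sdc4, syndecans whose heparan sulfate binds chemokines, were at 0.31 (limma adjusted p = 0.103) and 0.27 (limma adjusted p = 0.131). In the other comparison, MEFs + ALL + nilotinib over MEFs + nilotinib, Sdc4 was 0.39 higher (SE 0.07, limma adjusted p = 0.0983).

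**Figure D4:**
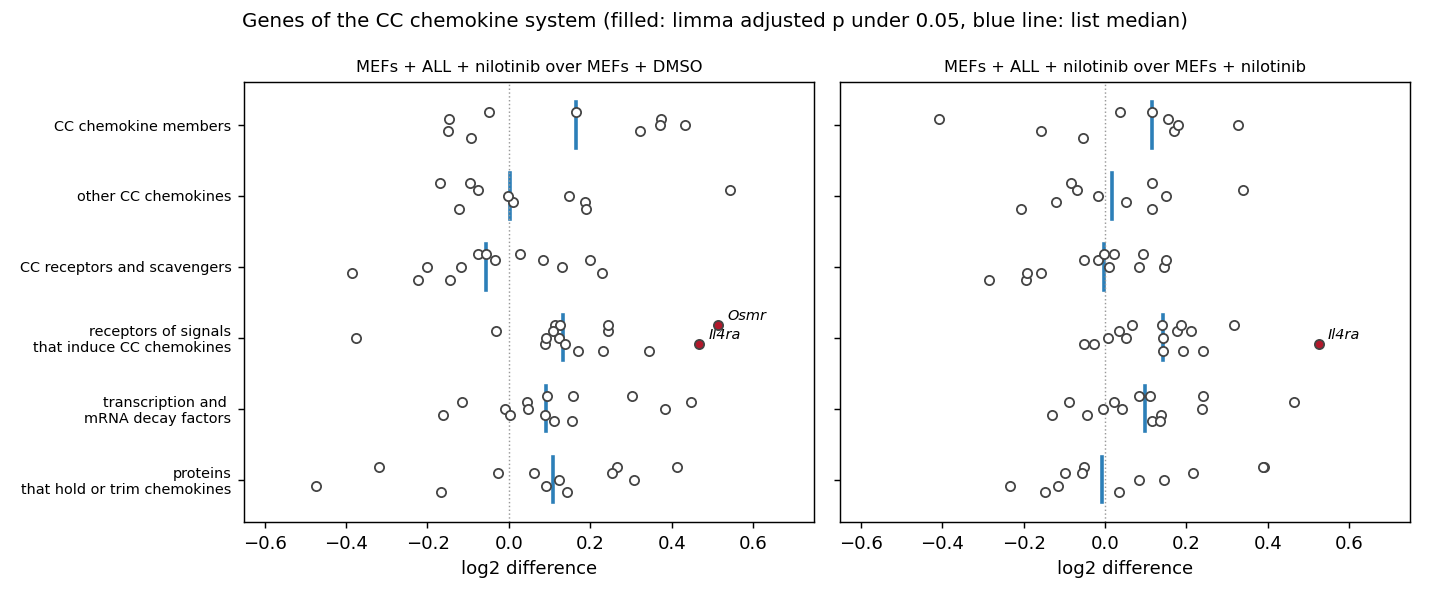
Log2 differences of the genes of 6 lists (1 point a gene) in MEFs + ALL + nilotinib over MEFs + DMSO and over MEFs + nilotinib, with list medians as blue lines and filled points where the limma adjusted p was under 0.05. The filled points are Il4ra in both panels and Osmr in the left one, and no chemokine gene is filled.

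On the lone MEFs + ALL + DMSO array 9 of the 65 measured genes of these lists (13.8%) were called against MEFs + DMSO, beside 10.3% of all probesets, and this is also the array with transcripts of lymphoid cells. Higher were Il17ra by 0.92, Ifngr1 by 0.76, Osmr by 0.58, Irf1 by 1.07, Rel by 0.39 and Dpp4, a surface peptidase that trims the ends of chemokines, by 4.56. Lower were the matrix proteases Mmp2 (-0.36), Mmp9 (-0.42) and Mmp14 (-0.79). Dpp4 was between 5.341 and 6.005 on the 9 arrays of the triplicate groups and at 10.4 on the lone array. Leaving out 1 array of MEFs + DMSO ended the calls of Rel (adjusted p of 0.0763 to 0.111), Mmp2 (0.0544 to 0.0645) and Mmp9 (0.0531 to 0.0591) for each of the 3 arrays, and that of Osmr for replicates 2 (0.0552) and 3 (0.0605). MEFs + ALL + nilotinib over the lone array had Ackr4 and Mmp9 (0.48) as higher and Il17ra (-0.79), Ifngr1 (-0.64), Irf1 (-0.69) and Dpp4 (-4.88) as lower. Of these, Mmp9 was lost without replicate 3 of MEFs + ALL + nilotinib (adjusted p = 0.0525) and Irf1 without replicate 1 (0.0620) or 3 (0.0626).

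The genes most like each member were taken as those with the highest Pearson r across the 10 arrays. The r over the 9 arrays of the triplicate groups is given beside it. For Ccl2 they were Serpina3n, an acute phase protease inhibitor (0.974 and 0.982), Kng2, a kininogen (0.965 and 0.970), and Smim3 (0.960 and 0.969). For Ccl7 they were Casp4, an inflammatory caspase (0.982 and 0.985), Mtrr, a methionine synthase reductase (0.962 and 0.966), and the cytokine gene Il6 (0.959 and 0.960). For both, every r was higher without the lone array. For Ccl20 they were Fkbp11 (0.959 and 0.953), Cmtm4 (0.948 and 0.944) and Apip (0.944 and 0.943), and for Ccl5 Cdc42ep5 (0.925 and 0.930), Heph (0.916 and 0.920) and Dixdc1 (0.915 and 0.910). For Ccl17 they were Fam210b (0.966 and 0.932), Mtus1 (0.965 and 0.932) and Plk2 (0.963 and 0.916), all weaker without the lone array. Ccl3 had Spindoc (0.881 and 0.881), Per3 (0.875 and 0.881) and Actrt1 (0.859 and 0.881), the lowest leading values of the 9 genes. The nearest of Ccl4 were Olfr1298 (0.969 and 0.969), Olfr530 (0.956 and 0.979) and Cbl (0.937 and 0.950), those of Ccl8 were 1700003E16Rik (0.933 and 0.915), Tjp1 (0.920 and 0.909) and Tex13c3 (0.920 and 0.879), and those of Ccl11 were Ncr1 (0.920 and 0.933), Vmn2r9 (0.896 and 0.854) and Ppp3r2 (0.886 and 0.860). The lowest of these values over 10 arrays was 0.859, for Actrt1. An r of at least that size was thus found for every member, the dim Ccl8 included, among the 19938 genes. Chosen over the 9 arrays instead, the nearest genes were all different for Ccl3, Ccl5, Ccl17 and Ccl20. The leading gene was then Il10ra for Ccl5 (0.124 over 10 arrays and 0.950 over 9) and Ndufa5 for Ccl20 (0.792 and 0.982). For Ccl2, Ccl4, Ccl7, Ccl8 and Ccl11 the choices overlapped, and Casp4 led for Ccl7 in both.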

How the data were processed

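RNA of irradiated MEFs was hybridised to Affymetrix mouse gene arrays, 1 array per dish, 10 in all. The values analysed are the log2 probeset signals that the authors deposited, which a figure legend of the study calls RMA-normalized. The processing notes of the submission name Partek. No source used here gives its version or the background correction. There were 35557 probesets and 0 gaps in the table, and 21789 of the probesets carried 1 symbol in the annotation of the array, of which 21698 matched RefSeq genes by gene ID with 0 symbols changed.

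For each of the 9 genes the probeset with 1 symbol and the highest mean over the arrays was used. The 4 group means were fitted with limma 3.58.1 under R 4.3.3 (lmFit and eBayes, all 10 arrays, shared spread, 6 residual degrees of freedom), with Benjamini-Hochberg adjustment over all probesets and a threshold of 0.05. The lone MEFs + ALL + DMSO array was assumed to vary like the other groups, and the precision is limited by the number of arrays. A simulation with known changes was used to test the fit. There were 6 contrasts: each group with ALL cells or drug against MEFs + DMSO, the group with both against each of the others, and the interaction. Groups are apart where no array of one lies within the range of the other. Genes named are the 9 members, chromosomal neighbours, and those of each list that passed or otherwise up to 3 with the largest difference. Also named are the 3 genes nearest to each member by Pearson r over the 10 arrays, and some of those nearest over 9. Members, lists and tests were chosen with earlier results of these data known. Alternatives were quantile normalization, median centring, limma with trend and robust, array weights, fits of only the groups compared, without the lone array, without the dimmest probesets (under the 20th percentile of mean signal) and without each array in turn, the replicate number as a block, and folds of anti-logged means. Upstream sequences are from RefSeq (GRCm38.p6) and were searched for 5 motifs on both strands. Protein sequences of the members were not analysed here. The value of 1 leukocyte marker is not reported here.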

Additional observations from a re-analysis of the deposited data

Results flagged for a closer look

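The effect of ALL cells differed with the drug, by limma's test of the interaction, for 4 of the 65 measured genes of the CC chemokine lists (6.15%), where 3.95% of all probesets were called. Dpp4, the chemokine-trimming peptidase, had an interaction of -4.61 (adjusted p = 9.78e-06), the interleukin-17 receptor gene Il17ra of -0.78 (adjusted p = 0.0140), the interferon receptor gene Ifngr1 of -0.71 (adjusted p = 0.0280) and Irf1 of -0.84 (adjusted p = 0.0259). In all 4 the MEFs + ALL + DMSO array was above the other 9 arrays. It is a lone array on which 9 of 11 pro-B and 9 of 9 leukocyte markers were called higher than in MEFs + DMSO, and the part of lymphoid transcripts in these values was not tested. Dpp4 and Il17ra passed in 14 of 14 alternatives, Ifngr1 in 10 and Irf1 in 7.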

How the results depend on the processing

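The 9 members gave 705 values under the alternatives, of which 681 were counted as unchanged. For values with a test this means the same direction and side of the threshold. Folds of anti-logged means have no p and were counted as unchanged when within the fit's SD of the main value. With array weights 3 members were called in MEFs + ALL + nilotinib over MEFs + DMSO, all as higher, beside 816 of all probesets. With only the groups compared 0 members were called on the lone array. Among the values with a test, signs turned for 20, none of them called: with array weights to 0.015 for Ccl3 in MEFs + ALL + nilotinib over MEFs + nilotinib and to -0.026 for Ccl8 in MEFs + nilotinib over MEFs + DMSO. With 1 array left out, the range was -0.0114 to 0.122 for Ccl11 and -0.123 to 0.0674 for Ccl3 in MEFs + ALL + nilotinib over MEFs + nilotinib. In MEFs + nilotinib over MEFs + DMSO it was -0.00076 to 0.198 for Ccl11, -0.176 to 0.0299 for Ccl3 and -0.0604 to 0.107 for Ccl8. In MEFs + ALL + nilotinib over MEFs + DMSO it was -0.229 to 0.0268 for Ccl3 and -0.0971 to 0.0184 for Ccl4, on the lone array over MEFs + DMSO -0.0649 to 0.0022 for Ccl20, and in MEFs + ALL + nilotinib over the lone array -0.0334 to 0.107 for Ccl7.

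Of the other genes of the system, 2 were called in MEFs + ALL + nilotinib over MEFs + DMSO, 11 with array weights, 0 with only the groups compared, 0 with a replicate block and 0 to 1 with an array left out. In MEFs + ALL + nilotinib over MEFs + nilotinib there was 1, 2 with array weights, 2 with trend and robust, 0 with only the groups compared, 0 with a replicate block and 0 with an array left out. On the lone array over MEFs + DMSO there were 9, 20 with array weights and 5 to 7 with an array left out. MEFs + ALL + nilotinib over the lone array had 6, 1 with only the groups compared and 3 to 6 with an array left out, and the interaction had 4, and 2 to 5.

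Over all probesets, the 223 calls of MEFs + ALL + nilotinib over MEFs + DMSO became 12 with only the groups compared, 8 with the replicate block, 350 without the dimmest probesets, 476 with trend and robust, 1263 with array weights and 8 to 99 with an array left out. The 66 calls over MEFs + nilotinib became 4, 12, 99, 117 and 141 in the same order, and 12 to 36 with an array left out. Nilotinib alone had 0 calls and 3985 probesets at an unadjusted p under 0.05, with 0 calls also under trend and robust and under array weights, and 57 without replicate 1 of MEFs + nilotinib. On the lone array over MEFs + DMSO the 3651 calls became 6615 with array weights and 2137 to 2491 with an array left out. In MEFs + ALL + nilotinib over the lone array 1543 became 535 with only the groups compared, and the 1406 of the interaction became 2323 with array weights.

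The replicate numbers do not pair the arrays: deviations from group means correlated at -0.293 to 0.241 between arrays of the same number and at -0.259 to 0.389 between others. With the replicate number as a block, 0 members were called in the 3 comparisons of triplicate groups, and the calls of Il4ra (adjusted p = 0.111 and 0.139) and Osmr (0.160) were lost. With a block no value can be had for the lone array. A mean over several probesets of a member gave nothing to compare, since each has 1. The cause of these shifts was not tested.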
